A study of Rattus norvegicus with 12 samples.

Results

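The immediate early response genes are a set of 10 genes, Fos, Fosb, Jun, Junb, Egr1, Atf3, Ier2, Nr4a1, Btg2 and Dusp1, described here in the left ventricle of old rats that differed in their access to physical activity. Members were the probe sets (groups of short probes for 1 transcript) whose only gene symbol in the probe annotation was on that list. This gave 13 of 31042 probe sets, for 9 of the 10 genes. No probe set carried Btg2, an antiproliferative gene, as its only symbol, and Btg2 was not analysed here. Of the 13 probe sets, 11 passed the filter on low values. The other 2 were the second probe sets of Fos and of Dusp1.

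RNA came from the left ventricle of female Sprague-Dawley rats aged 16 months. The SED group lived in a standard cage only, the PA group was also placed in a large box for 1 h of activity 2 times a week, and the EX group had access to voluntary exercise throughout life. Each group had 4 Affymetrix Rat Genome 230 2.0 arrays. The design text describes 12 animals per group and pools of 4 per array, which would fill 3 arrays, so which animals stand behind each of the 4 arrays is not settled, and p-values measure the spread between these pooled arrays.

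Array medians lay between 5.64 and 5.72 (log2). The interquartile range of an array, a measure of the spread of its values, was lower in every SED array than elsewhere. It was 3.58, 3.85, 3.86 and 3.73 in SED arrays 1 to 4, and 3.89 to 4.04 over the PA and EX arrays. What this did to the comparisons with SED was not tested, beyond the other normalizations given below. SED 1 stood apart: its mean correlation with the other 11 arrays was 0.964, against 0.987 to 0.989 for those arrays, and its Gapdh probe sets for the 3' and 5' ends differed by 1.56, against 0.96 to 1.35 elsewhere. Results that rest on SED 1 are given with and without it. The labelled tissue was checked against 9 measured cardiomyocyte markers, which read between 11.8 and 13.22 on every array.

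Immediate early genes are transcribed within minutes of a stimulus, without new protein synthesis, by transcription factors that are already present in the cell, such as SRF with its ternary complex partners and CREB. Their products include transcription factors, among them the FOS and JUN proteins that pair to form AP-1, and feedback regulators such as the phosphatase DUSP1. In heart muscle they are known to respond to stretch, adrenergic stimulation and ischaemia. Their transcripts are short-lived, so a single sample shows the state of the pathway shortly before it was taken.

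RefSeq promoters, the 250 bases before the gene's start in the GRCr8 table, were matched for 7 of the 10 genes (Btg2, Dusp1, Egr1, Fosb, Ier2, Junb and Nr4a1) and searched on both strands. The cyclic AMP response element TGACGTCA, the palindrome bound by CREB and ATF proteins, was present in 3 of the 7 (Btg2, Dusp1 and Ier2), and in 1.7% of 27457 promoters of the same length. The related element TGCGTCA, which is also AP-1-like, was present in 1 of the 7, Nr4a1, in 4 copies, and in 1.84% of all promoters. The CArG box, the core of the serum response element bound by SRF, was present in Egr1 as 2 copies and in 1.5% of all promoters. The AP-1 element TGANTCA was in 0 of the 7 and in 6.36% of all promoters. No motif overlapped another in the 3 sequences shown. The promoters of Nr4a1, Ier2 and Dusp1 are shown as the members with an array value that hold one of these 2 related elements. Fos had no promoter in the table, and no relation between a motif and the array values was tested. The capitals mark the matches. A match describes the letters only and is not evidence of binding.
Nr4a1, chr7:134259888-134260137 (GRCr8, + strand): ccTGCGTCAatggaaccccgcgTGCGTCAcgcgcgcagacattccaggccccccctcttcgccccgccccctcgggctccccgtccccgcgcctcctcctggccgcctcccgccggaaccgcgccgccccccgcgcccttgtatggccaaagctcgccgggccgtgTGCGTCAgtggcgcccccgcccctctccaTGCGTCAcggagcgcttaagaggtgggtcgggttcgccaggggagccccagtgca
Ier2, chr19:40399123-40399372 (GRCr8, + strand): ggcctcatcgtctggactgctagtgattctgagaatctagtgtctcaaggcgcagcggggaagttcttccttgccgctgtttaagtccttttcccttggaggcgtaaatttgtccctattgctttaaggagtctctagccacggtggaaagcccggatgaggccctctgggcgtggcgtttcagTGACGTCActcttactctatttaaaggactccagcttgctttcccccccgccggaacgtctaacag
Dusp1, chr10:17184603-17184852 (GRCr8, + strand): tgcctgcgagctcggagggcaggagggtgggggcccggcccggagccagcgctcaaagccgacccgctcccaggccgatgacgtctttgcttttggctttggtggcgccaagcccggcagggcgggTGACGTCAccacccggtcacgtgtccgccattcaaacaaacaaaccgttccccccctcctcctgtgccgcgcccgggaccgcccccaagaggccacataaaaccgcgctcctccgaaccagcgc

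In Nr4a1 the 4 copies began 248, 228, 84 and 55 bases before the start used in the table. In Ier2 the single match began 66 bases before it and in Dusp1 124 bases before it. Btg2, which has no array value here, had its match 201 bases before the start.

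No immediate early gene differed between the groups by limma, and Fos and Nr4a1 instead varied widely among arrays of the same group. The range of Fos over the 12 arrays was 13.2-fold, or 5.66-fold (5.78 to 8.28, log2) without SED 1, and that of Nr4a1 was 5.13-fold. The lowest Fos value (4.56, SED 1) and the lowest Nr4a1 value (4.32, EX 2) lay under 4.94, the filter level for means. The brightest of the 3 probe sets of Jun, a partner of Fos in AP-1, ranged over 1.22-fold and the others over 2.06-fold and 1.65-fold. In each group the same array (SED 3, PA 2 and EX 3) held the highest Fos, the highest Nr4a1 and the highest Egr1 value. The Egr1 lead within PA was small, with 10.56 in PA 2 and 10.51 in PA 1. Because the tissue was measured in bulk, fewer cells of a type and less RNA per cell cannot be told apart.

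**Figure D1:**
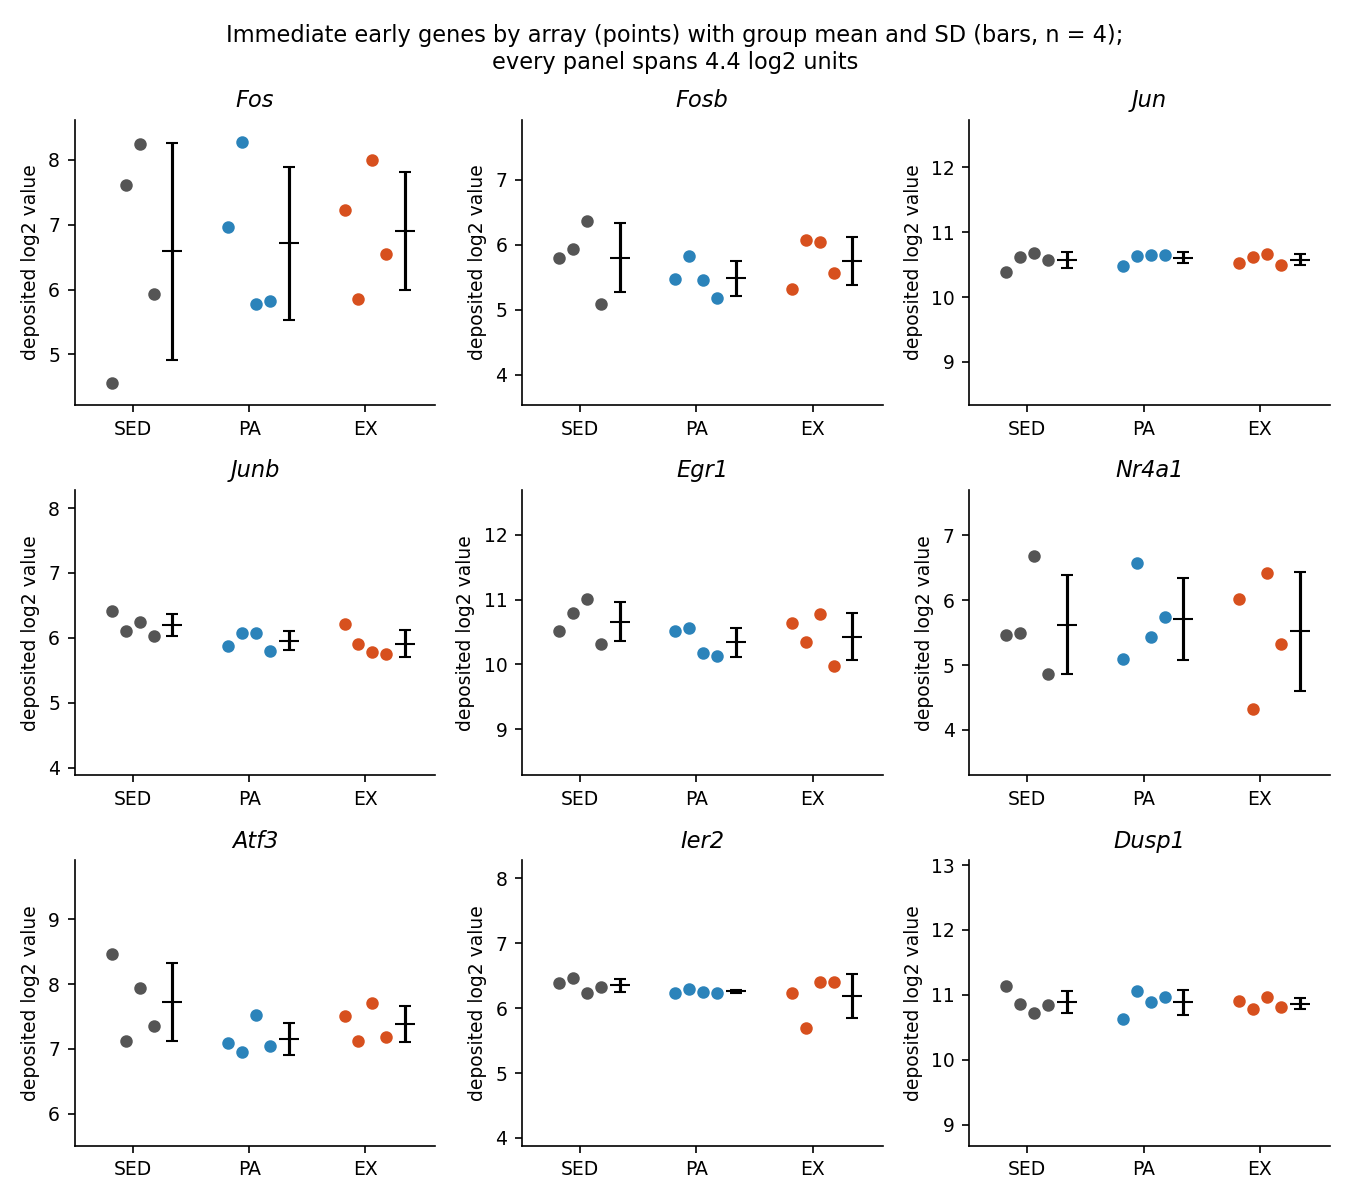
Deposited log2 value (vertical axis) of the representative probe set of each of the 9 measured immediate early genes, by group (horizontal axis: SED, PA, EX). Points are single arrays in replicate order, bars are the group mean with SD (n = 4), and each panel spans the same number of log2 units. Fos runs from 4.56 to 8.28 and Nr4a1 from 4.32 to 6.68 with overlap of all groups, while the brightest Jun probe set stays between 10.39 and 10.68.

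Fos encodes c-FOS, a subunit of AP-1. It read 4.56, 7.61, 8.25 and 5.93 in SED arrays 1 to 4 (log2). In the PA arrays 1 to 4 it read 6.96, 8.28, 5.78 and 5.83, and in the EX arrays 1 to 4 it read 7.22, 5.85, 7.99 and 6.55. Each group held both high and low arrays, and all groups overlapped. The group means were 6.59 ± 1.67 in SED, 6.71 ± 1.18 in PA and 6.90 ± 0.92 in EX (SD, n = 4 each). The EX mean lay 0.32 ± 0.80 (SE) above the SED mean, with a 95% interval from -1.43 to 2.06 and a limma adjusted p of 0.876. For PA against SED the difference was 0.13 ± 0.80, with a limma adjusted p of 0.955. The signs rested on single arrays. Without SED 1, the lowest array, the differences were -0.36 and -0.55 (limma adjusted p of 0.878 and 0.822). The EX difference was -0.05 without EX 3, and the PA difference was -0.40 without PA 2 and -0.09 without SED 4. In the other direction, without SED 3 they were 0.87 and 0.68 (limma adjusted p of 0.577 and 0.667).

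Within a group the highest Fos array exceeded the lowest by 12.9-fold in SED, 5.66-fold in PA and 4.41-fold in EX. The SED figure rests on SED 1, and the other SED arrays read between 5.93 and 8.25. The second Fos probe set lay under the filter and read between 3.35 and 4.77. Its SED arrays read 3.90, 3.73, 3.85 and 4.77, its PA arrays between 3.51 and 3.69, and its EX arrays between 3.35 and 3.74. The SED and PA arrays of this dim probe set did not overlap. In a fit without the filter PA lay 0.47 ± 0.19 (SE) below SED, with a limma adjusted p of 0.247. EX also lay 0.47 ± 0.19 below SED (limma adjusted p = 0.238). EX and PA together lay 0.47 ± 0.17 below it (limma adjusted p = 0.141). The 2 Fos probe sets did not move together over the 12 arrays (Pearson r = -0.231). Fos values that follow are those of the brighter one, except where the dim one is named.

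Fosb, a second FOS protein that also pairs with JUN proteins, read 5.79, 5.94, 6.37 and 5.09 in SED, 5.48, 5.83, 5.45 and 5.18 in PA, and 5.32, 6.07, 6.05 and 5.57 in EX. Its highest and its lowest array were both SED arrays, 3 and 4. The means were 5.80 ± 0.53 in SED, 5.49 ± 0.27 in PA and 5.75 ± 0.37 in EX (SD, n = 4 each). The PA mean lay 0.31 ± 0.26 (SE) below the SED mean (95% interval -0.88 to 0.25, limma adjusted p = 0.565). The EX mean differed from the SED mean by -0.05 ± 0.26 (limma adjusted p = 0.948).

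Jun, the principal partner of FOS proteins, had 3 probe sets. The brightest read 10.39, 10.62, 10.68 and 10.57 in SED, 10.48, 10.64, 10.65 and 10.65 in PA, and 10.52, 10.62, 10.67 and 10.49 in EX. Its lowest array was again SED 1. EX lay 0.01 ± 0.09 (SE) above SED (95% interval -0.19 to 0.21, limma adjusted p = 0.969) and PA 0.04 ± 0.09 above it (limma adjusted p = 0.857). Without SED 1 these differences were -0.048 and -0.018. The other Jun probe sets read 6.72 to 7.76 and 7.76 to 8.48. They moved together over the arrays (r = 0.786) but not with the brightest one (r = 0.0272 and 0.245), and their differences between groups were between -0.06 and 0.15. Their within-group SDs (spread between arrays of a group) were 0.302 and 0.243, against 0.0995 for the brightest, so how steady Jun was depended on the probe set.

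Junb, a JUN protein that can oppose c-JUN, read 6.41, 6.11, 6.24 and 6.03 in SED, 5.87, 6.08, 6.07 and 5.79 in PA, and 6.22, 5.90, 5.78 and 5.75 in EX. Its SED mean of 6.20 ± 0.17 was the highest of the groups, against 5.95 ± 0.15 in PA and 5.91 ± 0.22 in EX (SD, n = 4 each). One EX array and 2 PA arrays reached into the SED range, so the groups overlapped. EX lay 0.29 ± 0.13 (SE) below SED (95% interval -0.57 to -0.0046). Its unadjusted p of 0.0469 by limma was the smallest of the members that passed the filter in that comparison. It became 0.313 after adjustment. In the fit without the filter the unadjusted limma p was 0.0317 for the dim Fos probe set and 0.0451 for Junb. PA lay 0.25 ± 0.13 below SED (limma adjusted p = 0.381). For EX and PA together the difference from SED was -0.27 ± 0.11, with a limma adjusted p of 0.224. SED 1 held the highest Junb value, and without it the EX and PA differences were -0.21 and -0.17.

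Egr1 encodes a zinc-finger transcription factor of the early growth response family. It read 10.51, 10.79, 11.01 and 10.32 in SED, 10.51, 10.56, 10.17 and 10.13 in PA, and 10.64, 10.34, 10.77 and 9.97 in EX. The SED arrays included the highest value and the EX arrays the lowest, with overlap throughout. The means were 10.66 ± 0.30 in SED, 10.34 ± 0.22 in PA and 10.43 ± 0.36 in EX (SD, n = 4 each). PA differed from SED by -0.32 ± 0.20 (SE; 95% interval -0.74 to 0.11, limma adjusted p = 0.451) and EX by -0.23 ± 0.20 (limma adjusted p = 0.60).

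Nr4a1 encodes the orphan nuclear receptor NUR77. It read 5.46, 5.49, 6.68 and 4.86 in SED, 5.09, 6.58, 5.44 and 5.74 in PA, and 6.02, 4.32, 6.42 and 5.32 in EX. As for Fos, the high arrays were spread over the groups, 1 or 2 in each. The means were 5.62 ± 0.76 in SED, 5.71 ± 0.64 in PA and 5.52 ± 0.92 in EX (SD, n = 4 each). EX differed from SED by -0.10 ± 0.49 (SE; 95% interval -1.16 to 0.96, limma adjusted p = 0.938) and PA by 0.09 ± 0.49 (limma adjusted p = 0.944). Without SED 3, the highest array, the differences were 0.25 and 0.44 (limma adjusted p of 0.805 and 0.638). The EX difference was 0.30 without EX 2, and the PA difference was -0.20 without PA 2 and -0.16 without SED 4.

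Atf3, a stress-induced transcription factor that binds ATF and CREB sites, read 8.47, 7.12, 7.94 and 7.36 in SED, 7.10, 6.95, 7.52 and 7.05 in PA, and 7.51, 7.12, 7.71 and 7.18 in EX. SED 1 was its highest array. The means were 7.72 ± 0.61 in SED, 7.16 ± 0.25 in PA and 7.38 ± 0.28 in EX (SD, n = 4 each). PA lay 0.57 ± 0.26 (SE) below SED, with a 95% interval from -1.14 to 0.0048, an unadjusted p of 0.0517 by limma and an adjusted p of 0.332. EX lay 0.34 ± 0.26 below SED (limma adjusted p = 0.552). Without SED 1 the PA difference was -0.32 (limma adjusted p = 0.587) and the EX difference -0.09 (limma adjusted p = 0.897).

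Ier2, a nuclear regulator of transcription, read 6.38, 6.47, 6.23 and 6.33 in SED and between 6.24 and 6.30 in all 4 PA arrays. In EX it read 6.23, 5.69, 6.41 and 6.40, and EX 2 alone lay below all other arrays. EX differed from SED by -0.17 ± 0.14 (SE; limma adjusted p = 0.590) and PA by -0.10 ± 0.14 (limma adjusted p = 0.770). Dusp1, the phosphatase that inactivates MAP kinases and so closes a feedback loop on the pathway, read 11.13, 10.86, 10.72 and 10.84 in SED. It read 10.62, 11.06, 10.89 and 10.96 in PA and 10.90, 10.78, 10.97 and 10.81 in EX. The group means of Dusp1 lay within 0.0225 of each other, with limma adjusted p-values of 0.944 for EX against SED and 0.989 for PA against SED. Without SED 1, the highest Dusp1 array, these differences were 0.058 and 0.076. The second Dusp1 probe set was under the filter, with values between 3.53 and 4.24.

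Over the 9 measured genes the limma tests gave 0 adjusted calls in every comparison, and the share called among all 18626 tested probe sets was also 0 in each. At an unadjusted p under 0.05 EX against SED held 1 member (Junb) of 9, beside 12.9% of all 10244 genes. PA against SED held 0 of 9 beside 12.5%, EX against PA 0 of 9 beside 2.53%, and EX and PA together against SED 1 of 9 (Junb) beside 16.1%. In the F test over the 3 groups 0 of 9 members passed an unadjusted 0.05 beside 10.8% of genes. The arrays of 2 groups did not overlap for 0 of 9 members in any comparison, beside 6.76% of genes in EX against SED, 6.89% in PA against SED, 2.73% in EX against PA and 2.65% for EX and PA together against SED. The members' shares thus lay near or below the background in these counts.

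Most members had a lower mean with activity than without, by small amounts. In EX against SED 7 of 9 members lay below 0, beside 42.8% of all genes, with a member median of -0.10 and a median over all genes of 0.03. In PA against SED 6 of 9 lay below 0, beside 39.8%, with a member median of -0.10 against 0.05. Both comparisons share the SED arrays. EX against PA had 5 of 9 members below 0 beside 55.4% of genes, and both medians were -0.02. With EX and PA together against SED 7 of 9 lay below 0 beside 41% of genes. Without SED 1 the numbers below 0 in EX against SED, PA against SED and EX against PA were 8, 7 and 5 of 9. The shares of all genes below 0 were then 46.4%, 40.8% and 55.2%. The smallest limma adjusted p of a member was 0.467, for EX and PA together. Without SED 3 the number fell in EX against SED, where Fosb (0.15) and Nr4a1 (0.25) moved above 0. Fosb (0.012) and Nr4a1 (0.35) did so for EX and PA together, and in PA against SED no sign changed. After quantile normalization the numbers below 0 in EX against SED, PA against SED and EX against PA were 8, 7 and 5. The medians over all genes then lay below 0 as well, at -0.021, -0.012 and -0.0125.

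**Figure D2:**
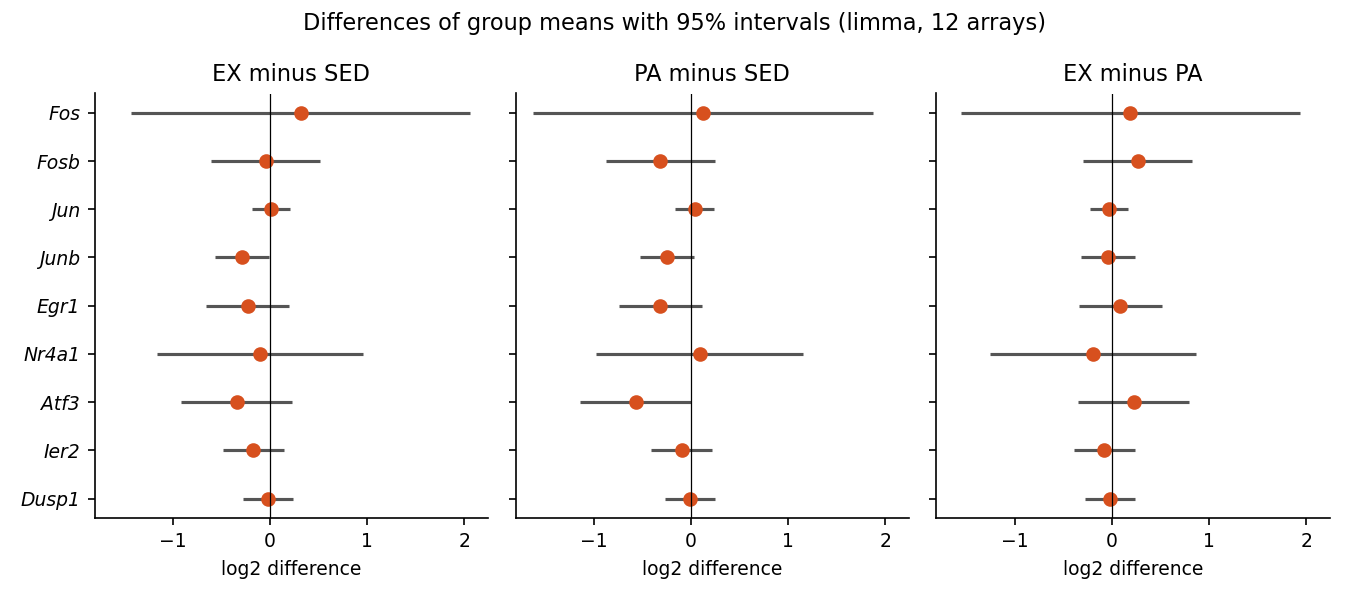
Difference of group means (points) with 95% interval (lines) from the limma fit over 12 arrays, for EX minus SED, PA minus SED and EX minus PA (horizontal axis, log2 difference; 0 is the vertical line), by gene (vertical axis). All but 1 of the intervals include 0, the exception being Junb in EX minus SED (-0.57 to -0.0046, adjusted p 0.313), and the Fos interval of -1.43 to 2.06 is the widest of the EX minus SED panel.

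The spread between arrays of a group, as a pooled within-group SD with 9 degrees of freedom, set the members apart from each other. Fos had a within-group SD of 1.29, the rank 7 of 10244 genes from the top. Nr4a1 had 0.782, rank 62. The median gene had 0.209, and the 5th and 95th percentiles were 0.0791 and 0.494. Next came Atf3 with 0.411 (rank 1017), Fosb with 0.404 (rank 1071) and Egr1 with 0.300 (rank 2516). Ier2 with 0.205, Junb with 0.178, Dusp1 with 0.156 and the brightest Jun probe set with 0.0995 (rank 9235) were at or under the median gene. Among the 500 genes nearest to it in mean level, Fos was at the 100th percentile of this SD, Nr4a1 at 98.6 and Egr1 at 96.2. By the same measure Atf3 was at 87.8, Fosb at 80, Dusp1 at 73.4, Ier2 at 28, Jun at 20.6 and Junb at 17.6. These ranks describe the arrays and carry no test.

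Without SED 1 the within-group SD was 1.09 for Fos (rank 9) and 0.826 for Nr4a1 (rank 19). It was then 0.429 for Fosb (rank 401), 0.312 for Atf3 (rank 1266) and 0.312 for Egr1 (rank 1267). The share of a gene's variance that lay between the groups was 1.32% for Fos, 1.33% for Nr4a1 and 0.508% for Dusp1. It was 20.8% for Egr1, 30.0% for Atf3 and 40.1% for Junb, and the median over all genes was 19.6%. These shares include SED 1, which held the highest Atf3 and Junb values.

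**Figure D3:**
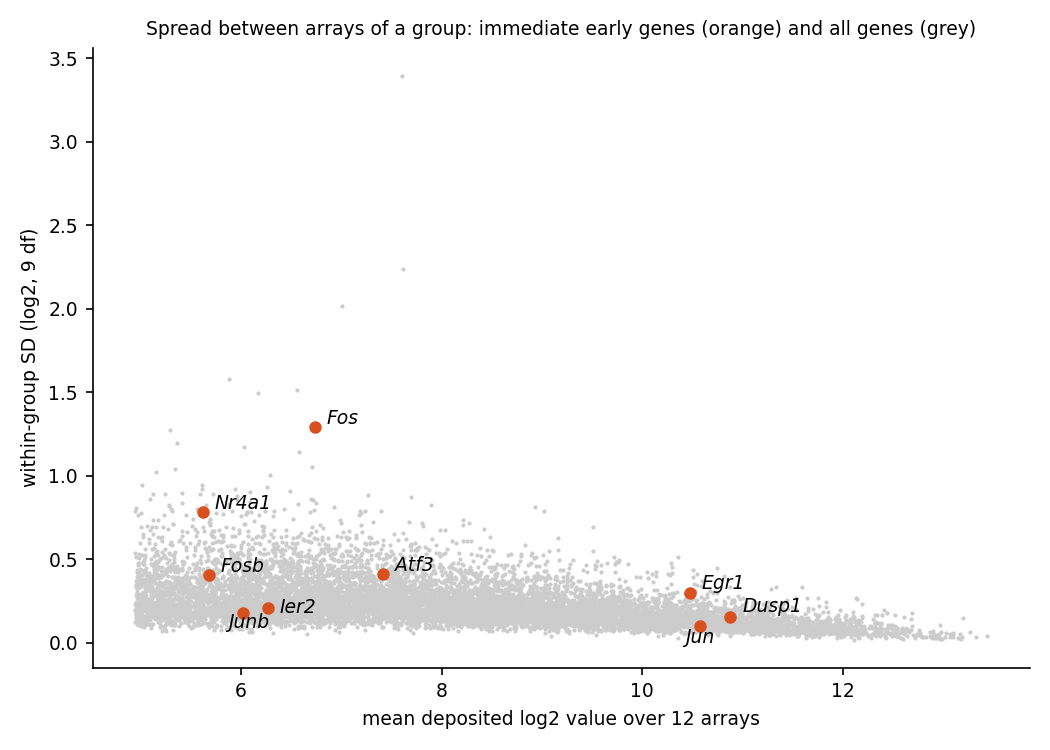
Pooled within-group SD (vertical axis, log2) against the mean deposited value over 12 arrays (horizontal axis, log2) for the representative probe set of each of 10244 genes (grey) and of the 9 immediate early genes (orange). Fos at 1.29 and Nr4a1 at 0.782 sit above nearly all genes of like level, and the brightest Jun probe set at 0.0995 sits in the lower part of the cloud.

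In each group 1 array had the highest average over the members. Averaged over the 9 genes, SED 3 lay 0.49 above the mean of the 12 arrays, EX 3 0.34 above it and PA 2 0.29 above it. In PA 2 and in EX 3 8 of 9 members were above their own mean, and in SED 3 7 of 9 were, with 4 genes (Fosb, Jun, Egr1 and Nr4a1) at their highest value. The number was 6 of 9 in each of SED 1, SED 2 and EX 1. Fos and Nr4a1 made much of the averages in SED 3, PA 2 and EX 3. Without these genes the other 7 averaged 0.27 in SED 3, 0.15 in EX 3 and 0.01 in PA 2, and 0.25 in SED 1. With all 9 included, the lowest averages were -0.33 in EX 2 and -0.26 in SED 4. In SED 1 the average was -0.06, from members that went opposite ways: Junb, Atf3 and Dusp1 had their highest value there, and Fos and Jun their lowest.

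**Figure D4:**
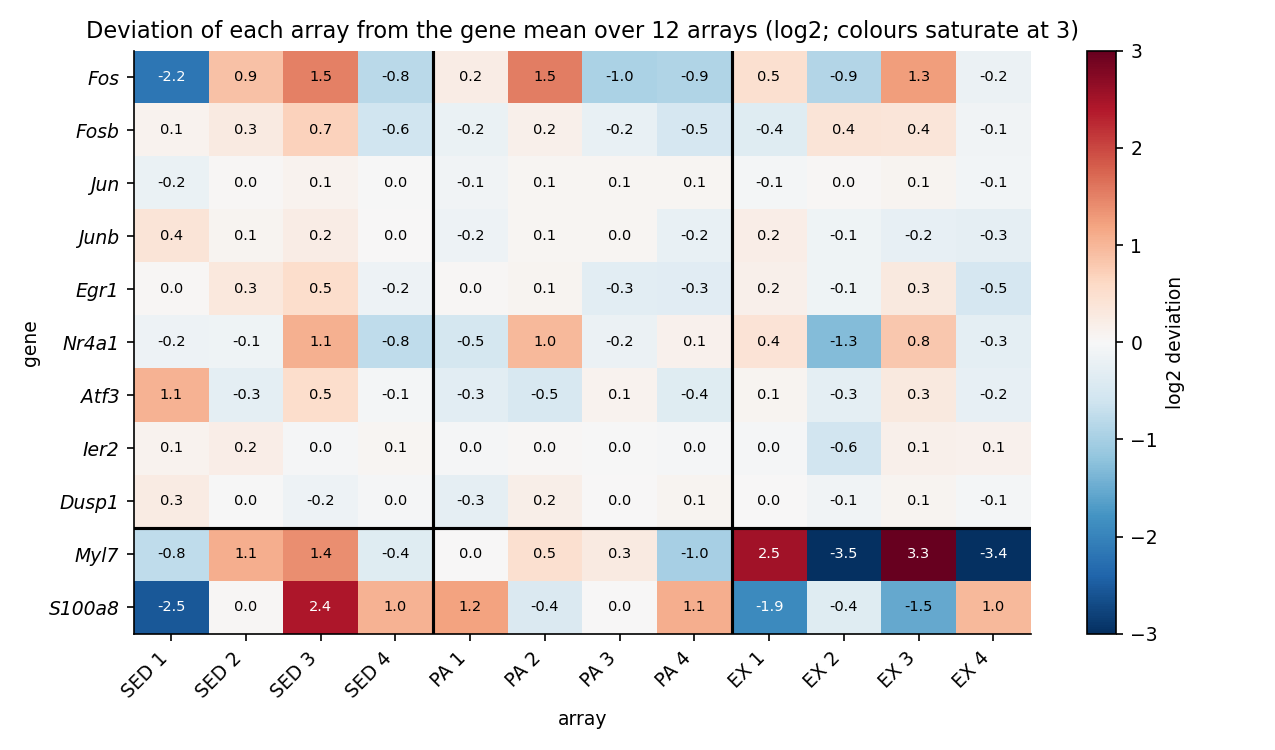
Deviation of each array (columns) from the gene's mean over the 12 arrays (colour and printed number, log2) for the 9 immediate early genes and, under the line, the atrial light chain gene Myl7 and the neutrophil gene S100a8. SED 3, PA 2 and EX 3 lie above the mean for Fos, Nr4a1, Egr1 and Myl7, by only 0.08 for Egr1 in PA 2. SED 1 is blue for Fos and red for Atf3.

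Correlations over the 12 arrays were computed for all 36 pairs of members, and none passed adjustment (lowest Benjamini-Hochberg p 0.22 for r and 0.367 for rho). The largest was that of Fos with Nr4a1, with r = 0.682 (permutation p = 0.0146) and rho = 0.636 (permutation p = 0.0298). Fos with Egr1 had r = 0.645 (permutation p = 0.0238) and rho = 0.715 (permutation p = 0.0113). Without PA 2 and SED 1, the 2 arrays farthest from the Fos median, r was 0.742 with Nr4a1 and 0.873 with Egr1. As deviations from the group means, r was 0.700 and 0.766. Junb with Atf3 had r = 0.645 (permutation p = 0.0211) and rho = 0.406 (permutation p = 0.189), and r was 0.354 without EX 4 and SED 1, so this relation rested on those arrays. Over all pairs 26 of 36 values of r were above 0, with a median of 0.271, and without SED 1 30 were, with a median of 0.346.

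**Figure D5:**
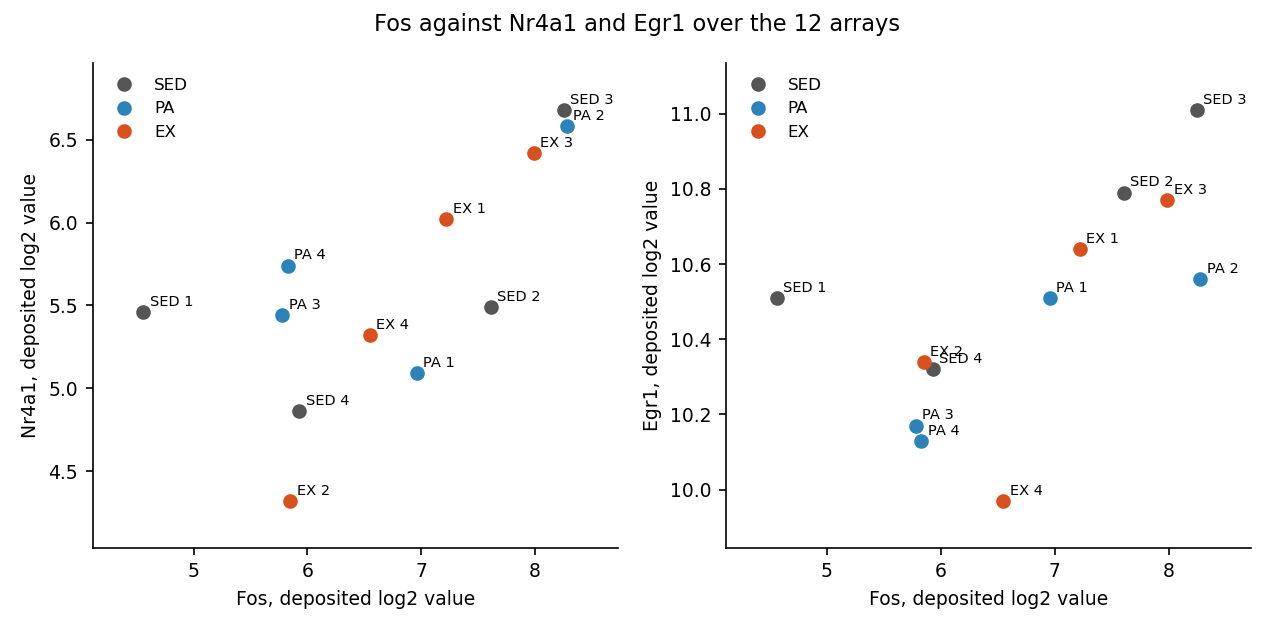
Deposited log2 value of Nr4a1 (left, vertical axis) and Egr1 (right, vertical axis) against that of Fos (horizontal axis), each point 1 array coloured by group. SED 3, PA 2 and EX 3 lie at the upper right in the Nr4a1 panel. In the Egr1 panel PA 2 (10.56) lies lower, under SED 2 (10.79) and EX 1 (10.64). The colours are mixed, and SED 1 lies far to the left at a Fos value of 4.56.

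One atrial marker had its highest value of each group in these same arrays, and the list it belongs to did not follow throughout. Myl7, an atrial myosin light chain, read 6.85, 8.70, 9.01 and 7.24 in SED, 7.63, 8.10, 7.88 and 6.61 in PA, and 10.12, 4.09, 10.88 and 4.23 in EX. Its highest array in each group was SED 3, PA 2 and EX 3, the same arrays as for Fos, Nr4a1 and Egr1; this was noticed after the values were seen. Of the 5 atrial markers listed, 4 were measured (Myl7, Myl4, Sln and Nppa), of which Nppa is also known in stressed ventricular muscle, and Bmp10 was not analysed here. Each of the others was also highest of EX in EX 3, but none peaked in all of the same 3 arrays. Nppa was highest in SED 2 (11.06), PA 1 (10.86) and EX 3 (10.92) and read 9.83 in PA 2, its lowest PA array. Myl4 was lowest of SED in SED 3 (6.45). Sln was highest of SED in SED 3 (6.44) but highest of PA in PA 1 (6.28). The averaged deviation of the 4 genes was 0.31 in SED 3, 1.25 in EX 3 and 0.02 in PA 2, under the 0.20 of PA 1. It ran from -0.34 to 0.31 over the SED arrays, -0.34 to 0.20 over the PA arrays and -1.02 to 1.25 over the EX arrays. The deviations were not scaled, so Myl7, which spanned 4.09 to 10.88, weighed most in this average. Sln spanned 5.55 to 7.52, Nppa 9.65 to 11.06 and Myl4 6.23 to 6.88. The list correlated with Egr1 (r = 0.718, permutation p = 0.00904; rho = 0.809, permutation p = 0.00232), Nr4a1 (r = 0.642, permutation p = 0.0236) and Fos (r = 0.602, permutation p = 0.0376). Without EX 3 and EX 4, the arrays farthest out on the atrial list, r was 0.586, 0.620 and 0.624. Among the 33 such relations computed, the lowest Benjamini-Hochberg p was 0.298 for r and 0.0766 for rho. The atrial correlations are not independent of the match of Myl7 noticed above, and the list without Myl7 was not tested. The part of atrial tissue in the spread of Fos, Nr4a1 and Egr1 was not tested.

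Leukocyte and blood markers stood highest in SED 3 and not in PA 2 or EX 3. The averaged deviation of all 8 listed leukocyte genes was 0.60 there, against -0.40 in SED 1, with ranges of -0.12 to 0.29 over PA and -0.27 to -0.0024 over EX. The leukocyte average was -0.06 in PA 2 and -0.0099 in EX 3. The 4 neutrophil and blood genes averaged 1.31 in SED 3, -0.23 in PA 2, -0.72 in EX 3 and -1.12 in SED 1, with S100a8 at 8.59 and 3.63. With Fos the leukocyte list had r = 0.573 (permutation p = 0.048), which was 0.110 without SED 1 and SED 3. With Nr4a1 the endothelial list had r = 0.360 (permutation p = 0.261) and rho = 0.741 (permutation p = 0.00841), and r was 0.834 without SED 1 and 0.770 without EX 2 and SED 1. With Egr1 the smooth muscle list of 3 genes had r = 0.601 (permutation p = 0.0388) and rho = 0.627 (permutation p = 0.0321), and r was 0.569 without EX 1 and EX 3. Gapdh 3' minus 5' signal had r = -0.540 with Fos (permutation p = 0.0626) and -0.158 without SED 1. Whether any of these contributed to the members' values was not tested.

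Of these marker lists limma called 0 genes in any comparison. In EX against SED the numbers above and below 0 were 3 and 6 of 9 cardiomyocyte genes, 2 and 2 of 4 atrial genes, 0 and 5 of 5 endothelial genes, and 4 and 2 of 6 fibroblast genes. They were 2 and 1 of 3 smooth muscle genes, 1 and 7 of 8 leukocyte genes, 2 and 2 of 4 neutrophil and blood genes, and 2 and 1 of 3 skeletal muscle genes. Of 4 heat shock genes 3 were above 0 and 1 below, and the same held for 4 glucocorticoid response genes. Over all genes 42.8% lay below 0, as above.

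Upstream of the immediate early genes, 21 regulators were tested, among them the kinases and transcription factors that switch the pathway on. Limma called 0 of 21, with 13 above and 8 below 0 in EX against SED and 15 above and 6 below in PA against SED. Over all genes 42.8% and 39.8% lay below 0 in these comparisons. By representative probe set, the 4 with the smallest F test p-values all had a lower mean in SED. Mapk9, the stress kinase JNK2, which phosphorylates c-JUN, read 5.74, 6.40, 6.38 and 5.71 in SED and between 6.36 and 6.64 in the other 8 arrays. Its EX mean lay 0.44 ± 0.16 (SE) and its PA mean 0.50 ± 0.16 above SED, each with a limma adjusted p of 0.213. Without SED 1 these were 0.34 and 0.39, and a further probe set lay 0.29 and 0.39 above SED. Elk4, a ternary complex partner of SRF, lay 0.42 ± 0.16 above SED in EX (limma adjusted p = 0.240), and 0.28 above it without SED 1. Its other tested probe sets disagreed with each other, with differences from SED of 0.57 and -0.27 in the EX group and 0.32 and -0.45 in the PA group. The brighter Srf probe set lay 0.29 ± 0.12 above SED in PA (limma adjusted p = 0.278), and 0.18 above it without SED 1. The other Srf probe set went the opposite way, with -0.25 in PA (limma adjusted p = 0.414) and -0.33 in EX (limma adjusted p = 0.291), so Srf has no settled direction here. Mapkapk2, a kinase downstream of p38, lay 0.32 ± 0.12 above SED in EX (limma adjusted p = 0.251), and 0.23 above it without SED 1. SED 1 held the lowest value of Elk4, Srf and Mapkapk2, at 7.75, 7.49 and 7.45. A further probe set of Creb1, which encodes CREB, had an F test p of 0.0115, against 0.016 for Mapk9. It lay 1.42 above SED in EX and 1.255 in PA (limma adjusted p of 0.162 and 0.229), or 0.98 and 0.82 without SED 1. The representative Creb1 probe set lay 0.11 and 0.53 above SED, and -0.12 and 0.31 from it without SED 1.

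Of 19 other early transcription factors on the array 10 passed the filter, and limma called 0 of them. In EX against SED 7 lay above and 2 below 0, and in PA against SED 5 lay above and 5 below. Klf2, a flow-responsive factor of endothelial cells, read 9.67, 9.67, 9.70 and 9.60 in EX and 9.56, 9.40, 9.44 and 9.39 in SED. These arrays did not overlap, and the difference of 0.21 ± 0.09 (SE) had a limma adjusted p of 0.264. A second Klf2 probe set went the opposite way without overlap, with differences from SED of -0.34 ± 0.09 in EX (limma adjusted p = 0.146) and -0.28 ± 0.09 in PA (limma adjusted p = 0.224), so Klf2 has no settled direction here. Nr4a3, the NR4A receptor related to Nr4a1, read 8.01, 6.99, 7.85 and 5.91 in SED, and PA lay 0.69 ± 0.37 below SED (limma adjusted p = 0.396), or 0.41 below it without SED 1. A second Nr4a3 probe set differed by 0.08 in PA. Klf4 and Cebpd, the other 2 of the 4 smallest F test p-values, differed from SED by 0.23 and -0.19 in EX (limma adjusted p of 0.496 and 0.553), and by 0.095 and -0.068 without SED 1.

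Early effectors and feedback regulators gave 0 calls of 27 tested genes, with 16 above and 11 below 0 both in EX and in PA against SED. Ptgs2, which encodes the inducible cyclooxygenase COX-2, read 5.99, 5.27, 5.86 and 5.75 in PA and 4.72, 5.68, 5.33 and 4.35 in SED. PA lay 0.70 ± 0.27 (SE) above SED with a limma adjusted p of 0.269, and EX 0.12 ± 0.27 above it. Without SED 1 these were 0.60 and 0.015. Spry4, an inhibitor of receptor kinase signalling, lay 0.30 ± 0.12 above SED in PA (limma adjusted p = 0.276). Zfp36, which speeds the decay of early transcripts, lay 0.32 ± 0.14 above SED in PA (limma adjusted p = 0.303), or 0.23 above it without SED 1, and Nfkbia, the inhibitor of NF-kappa-B, 0.30 ± 0.14 above it (limma adjusted p = 0.334).

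The genes whose pattern over the 12 arrays was most like the mean member profile, by Pearson r among 10235 other genes, were the smooth muscle marker Tagln (0.856), Irf8 (0.853), Ccdc107 (0.838), F8 (0.835), Tnfaip8l3 (0.807), Fgfr3 (0.797), Ift57 (0.796) and Adamts8 (0.787). The other smooth muscle genes measured did not follow throughout. Myh11 read 7.41 in SED 3, its lowest array, and Acta2 was highest in EX 3 (5.86) but lowest of PA in PA 2 (5.04). The member profile is a mean of log2 deviations, so the most variable members weigh most in it. Against the mean of the other 8 members, r was highest for Egr1 (0.792) and Nr4a1 (0.791), 0.480 for Fos, and lowest for Dusp1 (0.0888). Most like Fos were Fbn1 (0.910), Zfyve27 (0.909), Dera (0.893) and Actn4 (0.889), each above the r of 0.682 between Fos and Nr4a1. Without SED 1 these 4 had r between 0.854 and 0.860 and ranks 3 to 6. The values share the same 12 arrays and carry no test.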

How the data were processed

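The values are log2 expression values that the authors deposited, rounded to 2 decimals, for 12 arrays. MAS5 and RMA both appear in the submitters' processing notes with no role given, so the background correction behind low values is not known. Per the labels' protocols, RNA was isolated with a fibrous-tissue kit and 6 µg per array was made into biotin-labelled cRNA.

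Values were used as deposited. The 57 control rows were left out, and probe sets with 1 symbol were named (20826 of 31042; 436 had several and 9780 none). The brighter 60% of probe sets by mean value (18626, at or above 4.94) were tested, and a gene was represented by its brightest tested probe set (10244 genes). Group means over all 12 arrays were compared with limma 3.58.1 in R 4.3.3 (moderated two-sided tests, 9 residual degrees of freedom, Benjamini-Hochberg over all tested probe sets, threshold 0.05). Correlations used 100000 permutations (scipy 1.17.1); p-values from them are two-sided. The steps were tested on simulated data. Promoter sequences are from RefSeq (GRCr8). The members, the gene lists and the tests were chosen with earlier results of these data known. Named genes are all member probe sets, and up to 4 per other list with the smallest F test p of the representative probe set. Creb1, Klf6 and Jund were added for a further probe set each. The genes most correlated with the mean member profile (8) and with Fos (4) are also named. Alternatives were other normalizations, filters, an offset of 32, variance models, array weights, averaged probe sets, a replicate block and the removal of each array in turn. The spread, the correlations and the pathway genes without SED 1, and member averages without Fos and Nr4a1, were added after the data were seen. Arrays carry no read depth, and their number limits the precision.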

Additional observations from a re-analysis of the deposited data

Results flagged for a closer look

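Among the 39 groups of 4 arrays formed by the 13 member probe sets, 3 had 1 array far from the other 3 (Dixon's test at 95%), and chance flags about 1 in 20 such groups. Jun in PA 1 read 10.48 (log2) while the other PA arrays read 10.64 to 10.65. The dim Fos probe set in SED 4 read 4.77 while the other SED arrays read 3.73 to 3.90. Ier2 in PA 2 read 6.30 while the other PA arrays read 6.24 to 6.25.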

How the results depend on the processing

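No alternative gave an adjusted limma call of a member: over 803 alternative values of the 36 member differences the smallest adjusted p was 0.138 (Junb, EX and PA together against SED, without EX 1). The sign changed in 71 of the 803, 47 of them from leaving out 1 array, all for differences that were not called. Lowest and highest differences (log2) with 1 array left out follow for the genes whose sign changed. In EX against SED these ranges were Dusp1 -0.078 to 0.058, Fos -0.36 to 0.87, Fosb -0.28 to 0.15, Jun -0.048 to 0.048 and Nr4a1 -0.40 to 0.30. In PA against SED these ranges were Dusp1 -0.064 to 0.083, Fos -0.55 to 0.68, Jun -0.018 to 0.082 and Nr4a1 -0.20 to 0.44. In EX against PA these ranges were Dusp1 -0.10 to 0.042, Egr1 -0.026 to 0.24, Fos -0.17 to 0.71, Ier2 -0.15 to 0.089, Junb -0.14 to 0.014 and Nr4a1 -0.49 to 0.21. In EX and PA together against SED these ranges were Dusp1 -0.070 to 0.067, Fos -0.46 to 0.77, Fosb -0.41 to 0.012, Jun -0.033 to 0.063 and Nr4a1 -0.26 to 0.35. In EX against SED Jun was -0.029 with quantile normalization, -0.042 with cyclic loess, -0.010 with equal array medians and -0.032 with array weights. In PA against SED it was -0.0083, -0.026 and -0.014 with quantile, cyclic loess and array weights, and -0.012 with averaged probe sets, which gave 0.075 in EX against PA. For EX and PA together Jun was -0.019, -0.034 and -0.023 with quantile, cyclic loess and array weights, and Nr4a1 was 0.0048, 0.042 and 0.074, and 7e-04 with the offset. With array weights Fos was -0.14 in EX against SED, -0.46 in PA against SED and -0.30 for both together, Nr4a1 was 0.056 in EX against SED, and Dusp1 was 0.041 and 0.034 in EX and PA against SED, 0.0071 in EX against PA and 0.037 for both together. The cause of these changes was not tested, and under quantile normalization the all-gene median went from 0.05 to -0.012 in PA against SED, the largest such move of the comparisons. Over all tested probe sets the count past the threshold for EX and PA together rose from 0 to 1 with quantile, cyclic loess, equal medians or averaged probe sets, and to 184 with array weights, which also gave 8, 1 and 1 in EX against SED, PA against SED and EX against PA. Leaving out 1 array gave 0 to 2 in EX against SED and 0 to 12 for both together. The replicate numbers did not pair the arrays (correlations of same-numbered arrays from -0.209 to 0.134). With the replicate block 1 probe set passed for both together, and the smallest adjusted p of a member was 0.187. Differences of the size seen here for Fos cannot be resolved with 4 arrays per group, since its interval spans -1.43 to 2.06.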
